A study of Caenorhabditis elegans with 4 samples.

Results

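The glutathione S-transferase genes of the nematode *Caenorhabditis elegans* that carry the name *gst* were taken from the count table of this study by their RefSeq symbol. All symbols that begin with *gst-* were used except *gst-42*, which gave 43 genes of the 21895 rows in the table. The rule used symbols only and took in no expression value, but it was set with earlier results of these data known. Each of the 43 had a row, was annotated as protein-coding and had reads in every library, and all 43 passed the filter on low counts. The study asked how gene expression of worms responds to Cyclo(Pro-Tyr), a cyclic dipeptide built of proline and tyrosine. Whole wild-type worms of the Bristol N2 strain were exposed in M9 buffer for 24 h to the compound at 0.25 mg/mL or, as the control, to DMSO, its solvent. There were 2 libraries per group. The labels describe the animals at exposure only as embryos or first-stage (L1) larvae after bleach synchronisation.

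Glutathione S-transferases join the thiol of glutathione to electrophilic compounds, which makes those compounds more soluble and ready for export. They belong to the second phase of detoxification, after oxidation by cytochromes P450 and beside glucuronidation. In the worm many are enzymes of a branch related to the sigma class, which multiplied in nematodes and often lies in tandem runs along a chromosome. Several are switched on by SKN-1, the worm counterpart of the Nrf factors, and the intestine is the main site of detoxification.

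The libraries held 40240674 to 52987317 counts, and levels are given in CPM, the count scaled to library size by TMM. A single count equalled 0.0188 to 0.0256 CPM. The upper limit set by 0 counts, 3 counts, equalled 0.0563 to 0.0768 CPM, counting error only, because PCR copies of a molecule could not be told apart. Defining genes of intestine, epidermis, body wall muscle, neurons and germline all had reads in every library, and only the cuticle collagen genes *rol-6* and *bli-1* among them had a mean under 1 CPM. The summed level of 8 intestinal genes was 9171 and 7973 CPM in DMSO replicates 1 and 2 and 7434 and 8671 CPM in Cyclo(Pro-Tyr) replicates 1 and 2, so the groups overlapped. Summed over the list, 8 genes of moulting and larval stage stood at 462 and 662 CPM in the DMSO libraries and at 405 and 154 CPM in the Cyclo(Pro-Tyr) libraries. It was thus highest in DMSO replicate 2 and lowest in Cyclo(Pro-Tyr) replicate 2. Of these 8 genes 7 had a lower estimate in Cyclo(Pro-Tyr), with a median log2 ratio of -0.94. A log2 ratio is here the log2 fold change of Cyclo(Pro-Tyr) over DMSO from the edgeR fit. None of the 8 was called by edgeR, DESeq2 or limma-voom. An unadjusted p under 0.05 by edgeR was found for 5 of the 8, against 27.3% of all tested genes. Estimates were lower for 6 of 6 epidermal and 5 of 6 germline genes and higher for 4 of 6 muscle and 4 of 6 neuronal genes. Of the epidermal genes, 3 had both treated libraries below both DMSO libraries and 3 overlapped. Among those that overlapped were *lin-26* and *elt-1*, at log2 ratios of -0.02 and -0.03. Of the 24 genes of these 4 lists, edgeR and limma-voom called 0, and DESeq2 called 1 neuronal and 1 germline gene. Over all tested genes edgeR called 2.05% and DESeq2 9.2%. For 8 of the 24 the unadjusted p by edgeR was under 0.05, against the same 27.3%. *col-19*, the adult collagen, was at 0.958 CPM at most. The part of larval stage in the *gst* values was not tested. In RNA of whole worms, a change in the number of cells of a type and a change in RNA per cell cannot be told apart.

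The *gst* genes covered a wide range of levels. Set per kb of exon, so that genes of different length can be compared, the mean level over the 4 libraries of the highest gene was 2734 times that of the lowest. A mean of at least 10 CPM was reached by 24 genes, 16 lay between 1 and 10 CPM, and 3 were under 1 CPM. The highest was *gst-5* (CELE_R03D7.6), which encodes an enzyme known in the worm to handle the lipid peroxidation product 4-hydroxynonenal. Its level was 820 and 675 CPM per kb in DMSO replicates 1 and 2 and 673 and 646 CPM per kb in Cyclo(Pro-Tyr) replicates 1 and 2. Next came *gst-7* (CELE_F11G11.2), with 352 and 315 CPM per kb in DMSO and 268 and 267 CPM per kb in Cyclo(Pro-Tyr). The third was *gst-1* (CELE_R107.7), the pi-class enzyme studied in worm dopamine neurons, with 240 and 228 CPM per kb in DMSO and 203 and 195 CPM per kb in Cyclo(Pro-Tyr). The ranges of *gst-5*, *gst-7* and *gst-1* over the 4 libraries did not overlap, so their order was the same in every library. From *gst-1* on, the range of each gene overlapped that of the next in the order, through *gst-36* and *gst-39*. *gst-20* (CELE_Y48E1B.10) followed at 111 to 254 CPM per kb, then *gst-6* (CELE_F11G11.3) at 81.1 to 120 CPM per kb and *gst-13* (CELE_T26C5.1) at 74.5 to 86.2 CPM per kb. In Cyclo(Pro-Tyr) replicate 2, *gst-20* stood above *gst-1*.

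**Figure D1:**
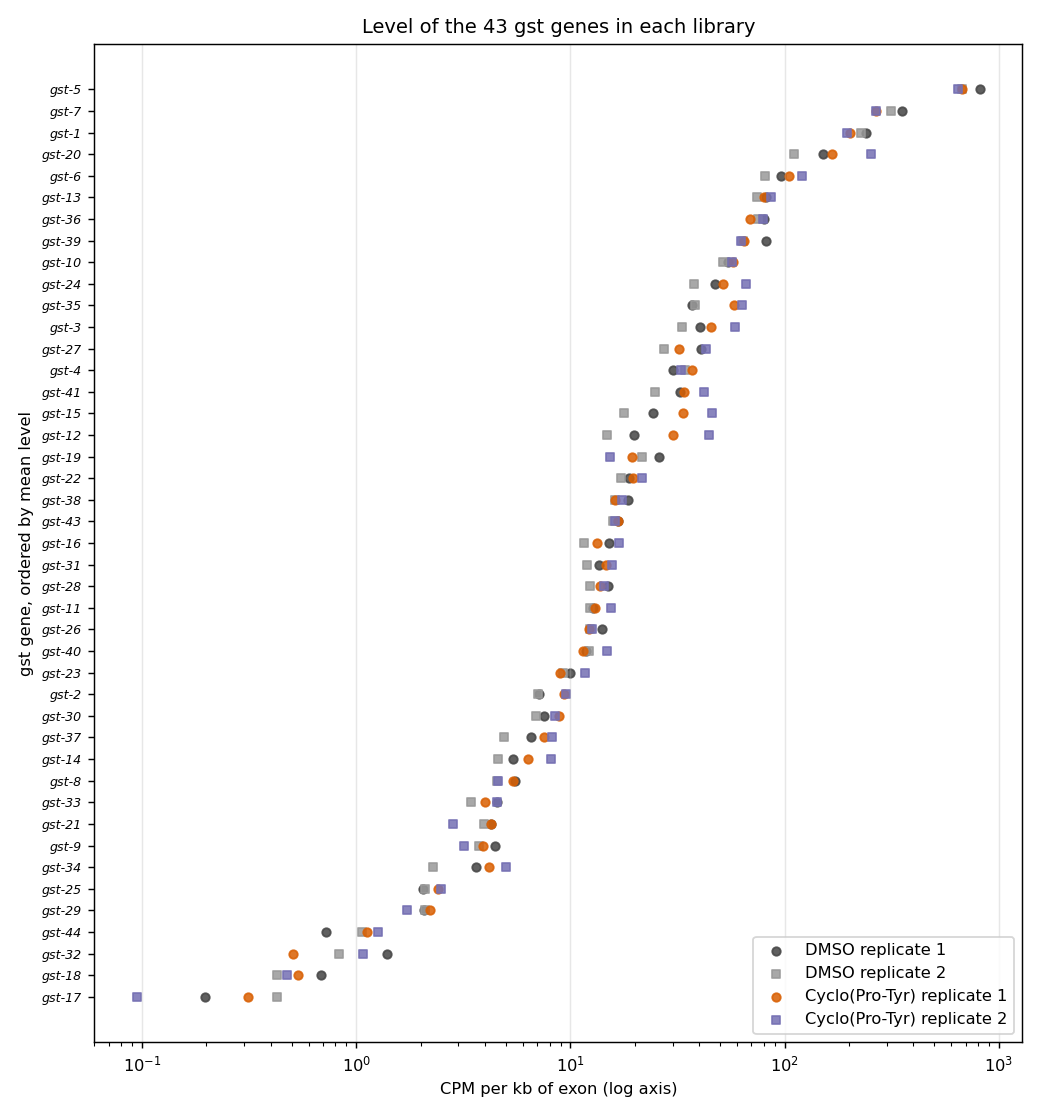
Level of each of the 43 *gst* genes in each library, in CPM per kb of exon on a log axis, ordered by the mean of the 4 libraries, 1 point per library. *gst-5*, at 646 to 820 CPM per kb, and *gst-7*, at 267 to 352 CPM per kb, stand above the rest in every library, the points of *gst-1* and *gst-20* overlap, and *gst-17* and *gst-18* are lowest.

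The lowest genes were *gst-17* (CELE_F37B1.6) and *gst-18* (CELE_F37B1.7), at a mean of 0.279 and 0.316 CPM. In the Ensembl annotation they share 351 bases of exon on the same strand, so the division of reads between them is uncertain. *gst-17* had 11 and 20 counts in the DMSO libraries and 18 and 4 counts in the Cyclo(Pro-Tyr) libraries, and a difference was not detectable at this depth. *gst-32* (CELE_Y53F4B.37) was the third gene under 1 CPM, at 0.934 and 0.554 CPM in DMSO and at 0.338 and 0.717 CPM in Cyclo(Pro-Tyr). Its log2 ratio of -0.58 was the most negative of the family, but its groups overlapped, its standard error was 0.46 and its edgeR adjusted p was 0.443.

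The summed level of the family overlapped between the groups, while the share held by its most abundant genes was lower in both treated libraries. The 43 genes together gave 1834 and 1569 CPM in the DMSO libraries and 1667 and 1803 CPM in the Cyclo(Pro-Tyr) libraries. The groups overlapped, and the ratio of their means was 1.02, or 0.995 when scaled by total counts. The 3 most abundant genes, *gst-5*, *gst-7* and *gst-1*, held 56.5% and 57% of this sum in DMSO replicates 1 and 2 and 50.3% and 45.1% in Cyclo(Pro-Tyr) replicates 1 and 2. Their own sum stood at 1037 and 894 CPM in DMSO and at 839 and 814 CPM in Cyclo(Pro-Tyr). The other 40 genes together stood at 797 and 675 CPM in DMSO and at 828 and 990 CPM in Cyclo(Pro-Tyr). Both treated libraries lay below both DMSO libraries for the first sum and above them for the second. These sums were formed after the levels had been seen and carry no test.

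**Figure D2:**
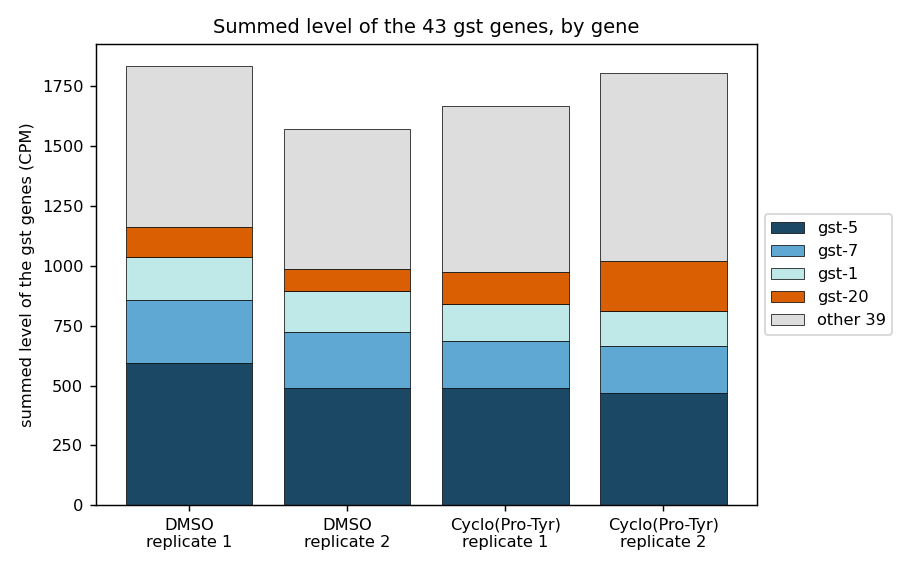
Summed level of the 43 *gst* genes in each library, in CPM, with the parts of *gst-5*, *gst-7*, *gst-1* and *gst-20* and of the other genes stacked. The sum runs from 1569 to 1834 CPM, and *gst-20* is at 90.8 CPM in DMSO replicate 2 and at 207 CPM in Cyclo(Pro-Tyr) replicate 2.

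The comparison of Cyclo(Pro-Tyr) with DMSO called 2 of the 43 genes, *gst-35* and *gst-12*, both higher in the treated worms. By edgeR's quasi-likelihood test at an adjusted p under 0.05, 2.05% of the 19439 tested genes were called, 0.715% higher and 1.33% lower. The share of the *gst* genes was 4.65%, which with 2 genes is a description only. DESeq2 called 4 (9.3%), *gst-12*, *gst-15*, *gst-20* and *gst-35*, where it called 9.2% of all genes, and limma-voom called *gst-35* alone. The edgeR count depended on single libraries: it was 0 without either DMSO library, 10 when Cyclo(Pro-Tyr) replicate 1 was left out and 3 without Cyclo(Pro-Tyr) replicate 2. The same fits called 0 and 4 genes of the whole table without DMSO replicates 1 and 2, and 4296 and 986 without the treated ones. At an edgeR adjusted p under 0.1 there were 3 *gst* genes (6.98%), below the 13.7% of all genes. No *gst* gene was called lower by edgeR, DESeq2 or limma-voom with treatment as the only term and all 4 libraries. At an unadjusted p under 0.05 by edgeR, 11 were higher and 2 were lower, 25.6% and 4.65% of the family, where 13% and 14.3% of all tested genes were higher and lower. Nothing in the labels says that the 2 libraries of a group came from separate cultures, so the p-values measure only the spread between these libraries, which may be technical.

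The family as a whole lay slightly to the higher side. Estimates were higher in Cyclo(Pro-Tyr) for 28 of the 43 genes and lower for 15, with a median log2 ratio of 0.12, against -0.0032 over all tested genes. Across the 3 other scalings 26 to 29 estimates were higher. Both treated libraries lay above both DMSO libraries for 19 genes (44.2%, background 29.6%) and below them for 4 genes (9.3%, background 30.8%), while 20 genes overlapped. Together 23 genes (53.5%) did not overlap, against 60.5% of all tested genes. The 4 genes below were *gst-5*, *gst-7*, *gst-1* and *gst-19*, which include the 3 most abundant members. In 14 of the 43 genes the level was lowest in DMSO replicate 2, then DMSO replicate 1, then Cyclo(Pro-Tyr) replicate 1, and highest in Cyclo(Pro-Tyr) replicate 2. This order held for 32.6% of the family and for 13.6% of all tested genes. The exact reverse, which 14.5% of all tested genes and 4 of the 8 moulting and stage genes showed, was seen in 0 of the 43. Single libraries moved the median of the family. It was 0.19 when DMSO replicate 1 was left out, 0.0688 without DMSO replicate 2, 0.23 when Cyclo(Pro-Tyr) replicate 1 was left out and 0.0712 without Cyclo(Pro-Tyr) replicate 2.

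**Figure D3:**
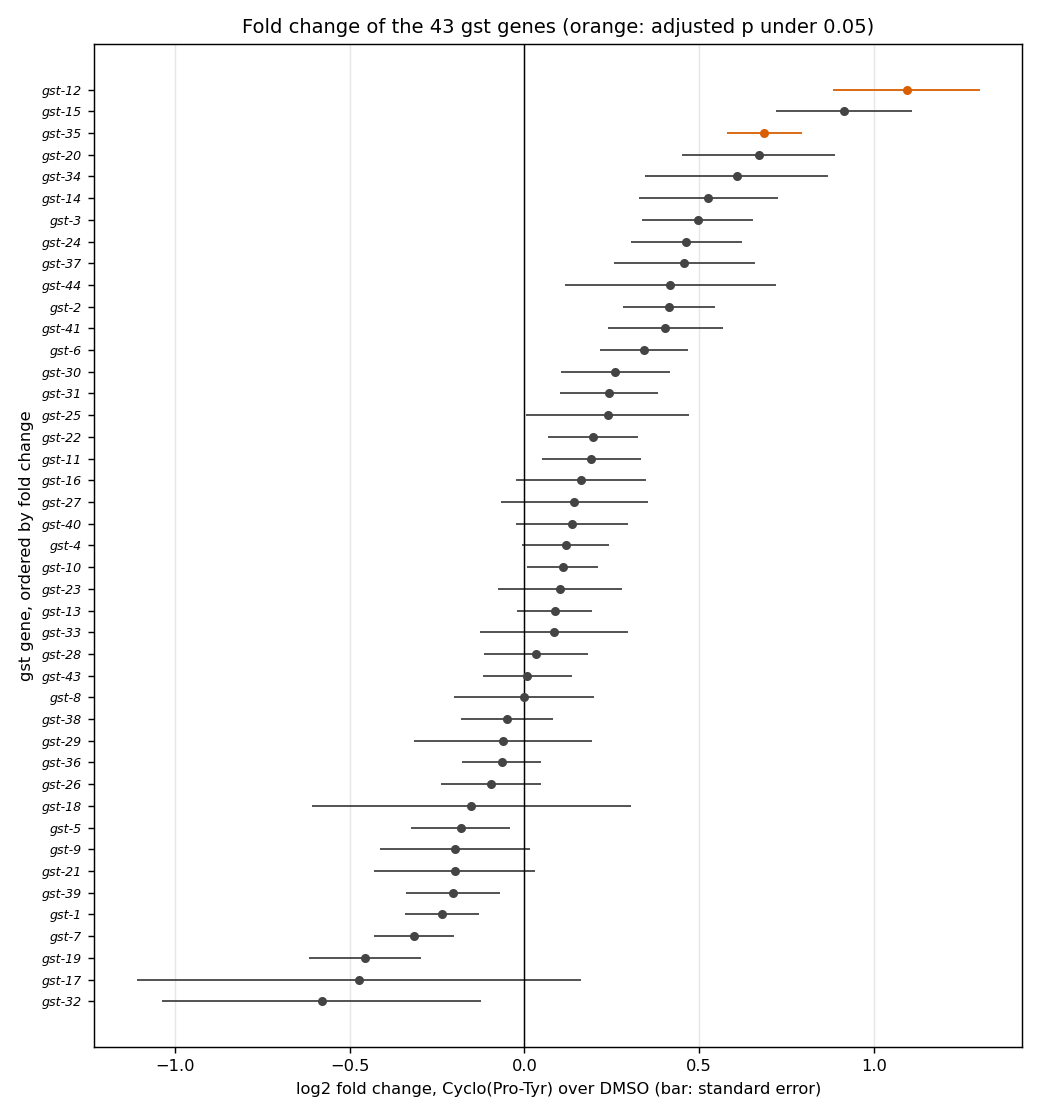
Log2 fold change of Cyclo(Pro-Tyr) over DMSO for the 43 *gst* genes, with the standard error as a bar, ordered by size. *gst-12* at 1.09 and *gst-35* at 0.69 are in orange as the genes past the threshold, and *gst-15* at 0.91 lies between them with an adjusted p of 0.055.

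*gst-35* (CELE_Y1H11.2), which lies on chromosome II at the end of a run of 9 *gst* genes, rose. It stood at 28.6 and 29.3 CPM in DMSO replicates 1 and 2 and at 44.6 and 48.6 CPM in Cyclo(Pro-Tyr) replicates 1 and 2. The groups were well apart, with means of 28.9 ± 0.506 and 46.6 ± 2.86 CPM (SD, n = 2). The log2 ratio was 0.69 ± 0.11 (SE), or 1.61-fold (edgeR adjusted p = 0.0363). The call was lost without DMSO replicate 1 (edgeR adjusted p 0.219) and without DMSO replicate 2 (0.339), although the log2 ratio was 0.67 and 0.702 there. The filter of 5 CPM in 2 libraries, under which edgeR called no gene of the whole table, gave an edgeR adjusted p of 0.0671.

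*gst-12* (CELE_F37B1.2), in another run of 9 on chromosome II, rose too and had the largest estimate of the family. It stood at 17.2 and 12.7 CPM in the DMSO libraries and at 25.9 and 38 CPM in the Cyclo(Pro-Tyr) libraries. Both treated libraries lay above both DMSO libraries, and the treated pair differed more from each other than the DMSO pair did. The means were 14.9 ± 3.15 and 32 ± 8.57 CPM (SD, n = 2), giving a log2 ratio of 1.09 ± 0.21 (SE), 2.13-fold (edgeR adjusted p = 0.0488). That value is just under the threshold. It was 0.0562 by edgeR with total counts, 0.0552 under the robust edgeR fit, 0.0507 by limma-voom and 0.0809 under the stricter filter, and the call was also lost without DMSO replicate 1 (0.219) and without DMSO replicate 2 (0.354). The log2 ratio was 1.35 without Cyclo(Pro-Tyr) replicate 1, against 0.79 without Cyclo(Pro-Tyr) replicate 2. Over all 14 alternatives its edgeR, DESeq2 or limma adjusted p ran from 6.76e-10 to 0.354.

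In the RefSeq gene order of assembly WBcel235 the run that holds *gst-12* reads *gst-20*, *gst-24*, *gst-15*, *gst-14*, *gst-12*, *gst-16*, *gst-19*, *gst-17*, *gst-18*, with no other protein-coding gene between them and all on the same strand. In the first 5 of these genes both treated libraries lay above both DMSO libraries. Each of the 5 had its lowest level in DMSO replicate 2 and its highest in Cyclo(Pro-Tyr) replicate 2. Over all tested genes, 29.6% had both treated libraries above, and 13.6% had this order of the 4 libraries. *gst-15* (CELE_F37B1.4) stood at 18.3 and 13.5 CPM in DMSO and at 25.4 and 34.7 CPM in Cyclo(Pro-Tyr). Its log2 ratio was 0.91 ± 0.19 (SE), and its edgeR adjusted p of 0.055 missed the threshold. DESeq2 called it (adjusted p = 0.00122), and its adjusted p ran from 1.3e-07 to 0.359 over the 14 alternatives.

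*gst-20*, the most abundant gene of the run, stood at 124 and 90.8 CPM in DMSO and at 136 and 207 CPM in Cyclo(Pro-Tyr), at a log2 ratio of 0.67 (edgeR adjusted p = 0.107). Cyclo(Pro-Tyr) replicate 1 was close to DMSO replicate 1 here, and without Cyclo(Pro-Tyr) replicate 2 the log2 ratio was 0.34. *gst-24* (CELE_F37B1.1) stood at 35 and 27.9 CPM in DMSO and at 38.2 and 48.7 CPM in Cyclo(Pro-Tyr), at a log2 ratio of 0.46 (edgeR adjusted p = 0.118). *gst-14* (CELE_F37B1.3) stood at 3.79 and 3.23 CPM in DMSO and at 4.49 and 5.71 CPM in Cyclo(Pro-Tyr), at a log2 ratio of 0.53 (edgeR adjusted p = 0.143). Over the whole run of 9, edgeR called 1 gene, and 6 had an unadjusted p under 0.05, 5 higher and 1 lower, where 2.05% of all tested genes were called and 27.3% had such a p. The first 5 genes were set apart after their values had been seen.

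The 4 genes farther along the run did not have both treated libraries above. *gst-16* (CELE_F37B1.5) overlapped between the groups, at a log2 ratio of 0.16 (edgeR adjusted p = 0.61). *gst-19* (CELE_F37B1.8) had the opposite sign, from 17.3 and 14.5 CPM in DMSO to 12.9 and 10.2 CPM in Cyclo(Pro-Tyr). Both its treated libraries lay below both DMSO libraries, at a log2 ratio of -0.46 ± 0.16 (SE; edgeR adjusted p = 0.123). The 2 last genes, *gst-17* and *gst-18*, were the low genes described above. Summed over the 9 genes the run stood at 227 and 171 CPM in DMSO and at 252 and 357 CPM in Cyclo(Pro-Tyr). Reads of neighbouring copies that resemble each other can be divided between them by the counting, and the sequences needed to judge this were not used here. The difference between the 2 ends of the run was noticed in the values and was not tested.

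**Figure D4:**
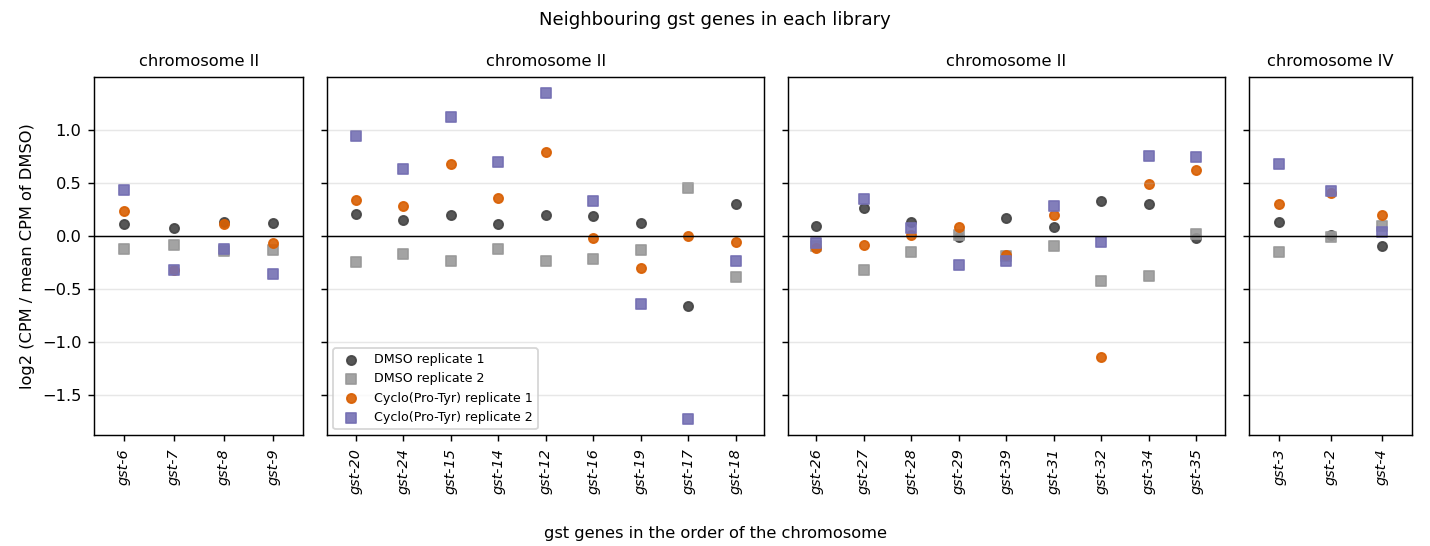
Level of each library relative to the mean of the DMSO libraries, on a log2 scale, for the 25 *gst* genes in runs of neighbours, in their order on the chromosome with 1 panel per run. In the second panel the first 5 genes from *gst-20* to *gst-12* have both Cyclo(Pro-Tyr) libraries above both DMSO libraries, *gst-19* has them below, and the wide spread of *gst-17* rests on 4 to 20 counts.

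The run that ends in *gst-35* holds *gst-26*, *gst-27*, *gst-28*, *gst-29*, *gst-39*, *gst-31*, *gst-32*, *gst-34* and *gst-35*, with 1 other protein-coding gene, between *gst-31* and *gst-32*. Here 5 estimates were higher and 4 lower, with a median log2 ratio of 0.03. Both treated libraries lay above both DMSO libraries in 3 of the 9 genes, against 29.6% of all tested genes. The direct neighbour *gst-34* (CELE_Y1H11.1) stood at 2.65 and 1.66 CPM in DMSO and at 3.02 and 3.64 CPM in Cyclo(Pro-Tyr). Its log2 ratio of 0.61 was close to that of *gst-35*, but its standard error was 0.26 and its edgeR adjusted p was 0.183. *gst-31* (CELE_Y53F4B.35) stood at 9.44 and 8.34 CPM in DMSO and at 10.2 and 10.8 CPM in Cyclo(Pro-Tyr) (edgeR adjusted p = 0.302). The most abundant gene of this run, *gst-39* (CELE_Y53F4B.33), stood at 57.7 and 45.2 CPM in DMSO and at 45.5 and 43.8 CPM in Cyclo(Pro-Tyr), so the groups overlapped. The log2 ratio of *gst-39* was -0.205. The other genes of this run, *gst-26*, *gst-27*, *gst-28*, *gst-29* and *gst-32*, overlapped between the groups as well.

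A smaller run of 4 on chromosome II held estimates of both signs side by side. *gst-7*, the second most abundant member, stood at 262 and 234 CPM in DMSO and at 199 and 199 CPM in Cyclo(Pro-Tyr), giving a log2 ratio of -0.32 ± 0.11 (SE). Its direct neighbour *gst-6* stood at 73.5 and 62.1 CPM in DMSO and at 80.1 and 91.9 CPM in Cyclo(Pro-Tyr), giving a log2 ratio of 0.34 ± 0.13 (SE). The groups did not overlap in either gene, and neither passed the threshold, with edgeR adjusted p of 0.128 and 0.136. *gst-8* (CELE_F11G11.1) was level, at 3.91 and 3.23 CPM in DMSO and at 3.85 and 3.28 CPM in Cyclo(Pro-Tyr), and *gst-9* (CELE_R05F9.5) had a log2 ratio of -0.199 with overlapping groups.

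On chromosome IV, *gst-3*, *gst-2* and *gst-4* lie next to each other, *gst-4* on the opposite strand to the other two. *gst-4* (CELE_K08F4.7) is the gene whose promoter serves as the standard worm reporter of SKN-1 activity under oxidative and electrophile stress. It stood at 22 and 25.1 CPM in DMSO and at 27 and 24.1 CPM in Cyclo(Pro-Tyr). The groups overlapped, and the log2 ratio was 0.12 ± 0.12 (SE; edgeR adjusted p = 0.575). Exons of *gst-4* share 65 bases with *dhs-12* on the same strand. *gst-2* (CELE_K08F4.6) had close replicates in both groups, at 8.58 and 8.46 CPM in DMSO and at 11.3 and 11.4 CPM in Cyclo(Pro-Tyr). Its log2 ratio was 0.41 ± 0.13 (SE; edgeR adjusted p = 0.102). In the annotation 89 bases of its exons overlap the antisense RNA K08F4.15, and since the strand setting of the counting is not given, reads of both cannot be told apart. *gst-3* (CELE_K08F4.11) stood at 29.2 and 24 CPM in DMSO and at 32.7 and 42.5 CPM in Cyclo(Pro-Tyr), at a log2 ratio of 0.495 (edgeR adjusted p = 0.103).

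The other 18 genes lie apart from any *gst* neighbour, and none was called by edgeR, DESeq2 or limma-voom. Of these, 13 estimates were higher and 5 lower, with a median log2 ratio of 0.11 and a range from -0.24 to 0.46. The abundant *gst-5* stood at 595 and 489 CPM in DMSO and at 488 and 468 CPM in Cyclo(Pro-Tyr). DMSO replicate 2 and Cyclo(Pro-Tyr) replicate 1 were almost equal, and the log2 ratio was -0.18 (edgeR adjusted p = 0.438). *gst-1* stood at 180 and 171 CPM in DMSO and at 152 and 146 CPM in Cyclo(Pro-Tyr). Its replicates were close and its groups apart, yet the difference was small, at a log2 ratio of -0.24 ± 0.105 (SE; edgeR adjusted p = 0.194).

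*gst-10* (CELE_Y45G12C.2), a pi-class enzyme that conjugates 4-hydroxynonenal in the worm and whose loss shortens life, stood at 39.1 and 37 CPM in DMSO and at 41.2 and 41 CPM in Cyclo(Pro-Tyr). For *gst-10* the log2 ratio was 0.11 ± 0.1025 (SE), and its edgeR adjusted p was 0.524, although both treated libraries lay above both DMSO libraries. *gst-38* (CELE_F35E8.8), another gene raised by SKN-1, stood at 15.8 and 13.8 CPM in DMSO and at 13.8 and 14.8 CPM in Cyclo(Pro-Tyr), with overlapping groups and a log2 ratio of -0.05. *gst-13* overlapped likewise, at 64.1 and 58.1 CPM in DMSO and at 62.6 and 67.2 CPM in Cyclo(Pro-Tyr). *gst-41* (CELE_R13D7.7) was the only one of these 18 with an unadjusted p under 0.05. It stood at 24.8 and 19.1 CPM in DMSO and at 25.9 and 32.3 CPM in Cyclo(Pro-Tyr), at a log2 ratio of 0.403 (edgeR adjusted p = 0.166). Of the rest, *gst-37* had the largest estimate, a log2 ratio of 0.457 at an edgeR adjusted p of 0.191, and *gst-11*, *gst-22*, *gst-25*, *gst-30*, *gst-37* and *gst-44* had both treated libraries above both DMSO libraries. *gst-21*, *gst-23*, *gst-33*, *gst-36*, *gst-40* and *gst-43* overlapped between the groups. *gst-36* shares 93 bases of exon with *scav-5* on the opposite strand and *gst-5* shares 12 with *nos-1*, which leaves part of their counts uncertain. Opposite-strand overlaps of 1 to 12 bases were annotated for *gst-22*, *gst-32*, *gst-40* and *gst-44*.

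Genes that work with the transferases were followed in 7 short lists of 44 genes in all, picked by function. Of these, 1 gene was called by edgeR, against the background of 2.05%, and 25 estimates were higher and 19 lower, with a median log2 ratio of 0.06. The list of glutathione synthesis and recycling held 6 genes, among them the thioredoxin reductase genes *trxr-1* and *trxr-2*. None of the 6 was called by edgeR, DESeq2 or limma-voom, and none had an unadjusted p under 0.05 by edgeR. Glutamate-cysteine ligase, the enzyme of the first step of glutathione synthesis, is encoded by *gcs-1*, itself a standard SKN-1 target. *gcs-1* stood at 167 and 166 CPM in DMSO and at 164 and 157 CPM in Cyclo(Pro-Tyr), and its log2 ratio was -0.06 (edgeR adjusted p = 0.763). The modifier subunit gene *gclm-1* had the smallest p of the 6 genes of this list. It stood at 43.8 and 38.4 CPM in DMSO and at 36.6 and 33.4 CPM in Cyclo(Pro-Tyr) (edgeR adjusted p = 0.243). The glutathione reductase gene *gsr-1*, at 167 and 156 CPM in DMSO and at 154 and 161 CPM in Cyclo(Pro-Tyr), overlapped between the groups. Both *gclm-1* and *gsr-1* overlap another gene on the opposite strand, so part of their counts is uncertain.

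The 8 glutathione peroxidase genes differed among themselves, with 3 estimates higher and 5 lower. None was called by edgeR, DESeq2 or limma-voom, and 4 had an unadjusted p under 0.05 by edgeR, against 27.3% of all tested genes. One of the higher estimates, also among those 4, was *gpx-8*, which is annotated as a pseudogene. *gpx-1* had the smallest p, at 43 and 43.4 CPM in DMSO and at 34 and 30.4 CPM in Cyclo(Pro-Tyr), a log2 ratio of -0.42 (edgeR adjusted p = 0.0705), and *drsh-1* overlaps it on the opposite strand. Of the 5 glutaredoxin genes, which encode small enzymes that reduce disulfides with glutathione, 4 estimates were lower, 1 gene was called by DESeq2 and 0 by edgeR or limma-voom. *glrx-10* stood at 47.3 and 43.5 CPM in DMSO and at 32 and 35.1 CPM in Cyclo(Pro-Tyr) (edgeR adjusted p = 0.0699), and it too overlaps a gene on the opposite strand. Among glutathione transferases outside the 43, the omega-class gene *gsto-3* stood at 45.3 and 41.2 CPM in DMSO and at 58.5 and 72 CPM in Cyclo(Pro-Tyr). Its log2 ratio was 0.59 ± 0.13 (SE), and its edgeR adjusted p of 0.0574 missed the threshold. It passed under DESeq2 (adjusted p = 0.0077) and under edgeR with upper-quartile scaling (0.0461), and over the 14 alternatives its adjusted p ran from 9.6e-05 to 0.359. *gsto-1* had the opposite sign, at a log2 ratio of -0.43 (edgeR adjusted p = 0.107). *gst-42*, the zeta-class enzyme of tyrosine breakdown, overlapped between the groups, at 47.9 and 36.2 CPM in DMSO and at 46.6 and 55.2 CPM in Cyclo(Pro-Tyr).

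**Figure D5:**
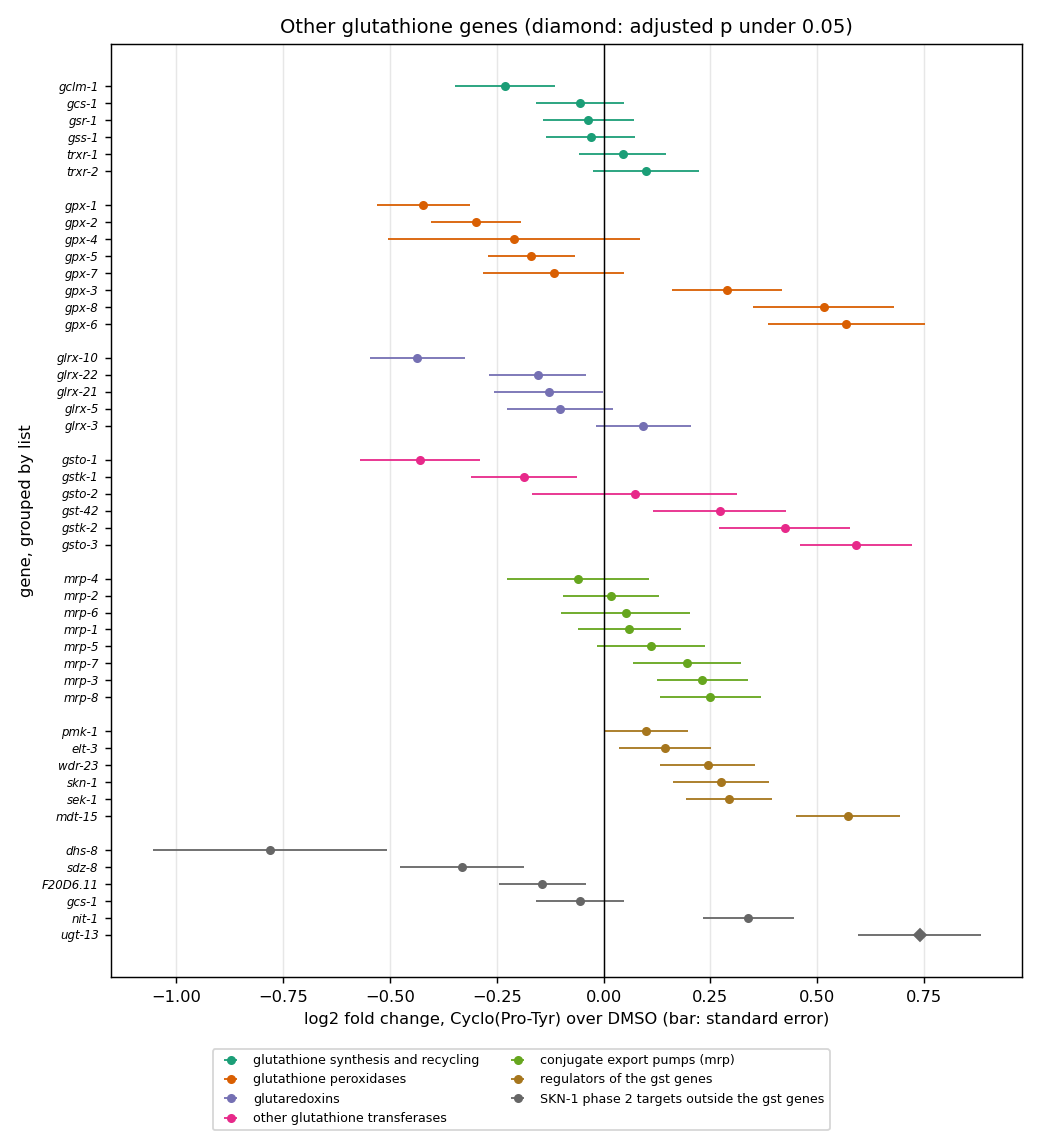
Log2 fold change of Cyclo(Pro-Tyr) over DMSO, with the standard error as a bar, for the 7 lists of genes that work with the transferases. *gcs-1* appears in 2 lists, *ugt-13* at 0.74 is the diamond, and all 6 regulators lie to the right of 0, from 0.0994 to 0.57.

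The *mrp* genes encode ABC pumps that export glutathione conjugates. For these, 7 of 8 estimates were higher, none was called by edgeR, DESeq2 or limma-voom, none had an unadjusted p under 0.05 by edgeR, and the median log2 ratio was 0.09. *mrp-3* had the smallest p, at 48.8 and 54.6 CPM in DMSO and at 61.2 and 60.3 CPM in Cyclo(Pro-Tyr) (edgeR adjusted p = 0.206). The 6 regulators, in which both treated libraries lay above both DMSO libraries without exception, had a median log2 ratio of 0.26. Over all tested genes, 29.6% had both treated libraries above. An unadjusted p under 0.05 by edgeR was found for 3 of the 6, against 27.3% of all genes. DESeq2 called 1 of the 6, against 9.2%, and edgeR and limma-voom called 0. The gene of the Mediator subunit *mdt-15*, a coactivator of detoxification genes, came closest, at 259 and 294 CPM in DMSO and at 411 and 411 CPM in Cyclo(Pro-Tyr). Its log2 ratio was 0.57 ± 0.12 (SE; edgeR adjusted p = 0.0559), and R12B2.8 overlaps it on the opposite strand. *skn-1* stood at 240 and 256 CPM in DMSO and at 305 and 295 CPM in Cyclo(Pro-Tyr), at a log2 ratio of 0.275 (edgeR adjusted p = 0.166), and *csn-5* overlaps it on the opposite strand. *wdr-23*, whose product marks SKN-1 for degradation, stood at 206 and 188 CPM in DMSO and at 232 and 234 CPM in Cyclo(Pro-Tyr) (edgeR adjusted p = 0.201).

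The SKN-1 targets outside the *gst* family were split. *ugt-13*, a UDP-glucuronosyltransferase gene, was the 1 call and rose from 70.2 and 78.8 CPM in DMSO to 140 and 108 CPM in Cyclo(Pro-Tyr). Its log2 ratio was 0.74 ± 0.14 (SE; edgeR adjusted p = 0.0493), and the call was lost by edgeR without DMSO replicate 1 (0.227) and without DMSO replicate 2 (0.351). *nit-1* had both treated libraries above both DMSO libraries as well, while *gcs-1*, *sdz-8*, *dhs-8* and F20D6.11 had them below. Over all tested genes, 29.6% had them above and 30.8% below. The differences of *gcs-1* and F20D6.11 were small, at log2 ratios of -0.06 and -0.14. *dhs-8* had the lowest estimate of the 44 genes, a log2 ratio of -0.78 (edgeR adjusted p = 0.123). *gst-4* and *gst-38*, which SKN-1 also raises, overlapped between the groups as given above.

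The intestinal markers stood beside these values as follows. Of the 8, 6 estimates were higher and 2 lower, with a median log2 ratio of 0.08. DESeq2 called 2, against 9.2% of all tested genes, and edgeR and limma-voom called 0. An unadjusted p under 0.05 by edgeR was found for 3, against 27.3% of all tested genes. The esterase gene *ges-1* stood at 56.3 ± 6.45 CPM in DMSO and at 89.8 ± 20 CPM in Cyclo(Pro-Tyr) (SD, n = 2; edgeR adjusted p = 0.0668). Its order of libraries was that of *gst-12* and *gst-20*, which 13.6% of all tested genes showed. This likeness was noticed in the values. The intestinal regulator *elt-2* overlapped between the groups, at 37.8 and 36.9 CPM in DMSO and at 40.6 and 36.8 CPM in Cyclo(Pro-Tyr). The brush border actin gene *act-5* stood at 580 and 563 CPM in DMSO and at 441 and 352 CPM in Cyclo(Pro-Tyr). The part of the intestine in the *gst* values was not tested.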

How the data were processed

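Raw counts of reads per gene for 4 libraries were deposited by the authors in 1 table. They came from stranded total RNA libraries read as single ends, per the labels' protocols. Bowtie2 and SAMtools are named, with no role, in the submitters' processing notes. Which tool counted the reads, on which build and annotation and with which strand setting was not given in the sources used here. No coordinates are printed. Columns were matched to titles by treatment and replicate number, and none was left unused. The treatment label of Cyclo(Pro-Tyr) replicate 2 names replicate 1, and the title was followed.

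Symbols and gene order came from RefSeq (WBcel235, 21890 of 21895 rows matched), and exon lengths and overlaps from Ensembl release 115. Runs are *gst* genes with at most 2 other protein-coding genes between neighbours. No promoter or protein sequences were used, so identity between members, which the rule for named genes mentions, was not computed.

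All genes were tested with edgeR 4.0.16 (R 4.3.3): filterByExpr, which left out 2456 genes, TMM, the quasi-likelihood test with treatment as the only term, and Benjamini-Hochberg adjustment over 19439 genes at 0.05. CPM values were computed here. The standard error is the size of the log2 ratio divided by the square root of F. The fit was tested on simulated data, with planted changes larger than most of the *gst* estimates, so this does not bear on smaller changes. Alternatives included DESeq2 1.42.0 and limma-voom (limma 3.58.1), other scalings and filters, a replicate block, and each library left out. The genes named in full were those past the threshold, up to 12 by smallest unadjusted p with groups apart, the 6 most abundant per kb, the 3 largest changes each way above 1 CPM, and *gst-1*, *gst-4*, *gst-10*, *gst-24* and *gst-38*. Of the lists, calls, the smallest p of each and *gcs-1*, *gsr-1*, *skn-1* and *wdr-23* were named. Other genes were named after their values were seen, for their place in a run, their level or their sign. Figures were drawn with matplotlib 3.10.9. The members, lists and rules were chosen with earlier results of these data known.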

Additional observations from a re-analysis of the deposited data

How the results depend on the processing

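The crossed pairing was chosen after the data had been seen. The number of *gst* genes called, 2 in the report, was 2 with DESeq2 size factors and with no filter and 3 with upper-quartile scaling. It was 1 with total counts, under limma-voom and under the robust fit, and 4 by DESeq2's Wald test. With at least 5 CPM required in 2 libraries it was 0. There 30 of the 43 were tested. An unadjusted p under 0.05 by edgeR was found for 11 of these (36.7%), against 30.3% of all genes tested under that filter. The number of *gst* calls also moved between the fits that left out 1 library, as given above. In those fits the lone library of a group is assumed to vary like the other group. The genes called higher gave the same counts, except 0 to 9 over those fits, and the genes called lower ranged from 0 to 1. Without DMSO replicate 1 the median log2 ratio of the family was 0.1881, against 0.0005 over all tested genes. The family median was 0.0688 without DMSO replicate 2, against -0.0024. The calls of the glutathione genes, 1 in the report, were 3 with upper-quartile scaling and 0 with total counts and with the filter of 5 CPM. They were 5 by DESeq2 and moved between the fits without 1 library. The median log2 ratio of the family stayed above 0 in each alternative, from 0.0688 without DMSO replicate 2 to 0.2297 without Cyclo(Pro-Tyr) replicate 1, and the ratio of summed levels ran from 0.945 to 1.11 over the fits without 1 library. The share of all tested genes called moved as well, from 2.05% to 2.21% with DESeq2 size factors and under limma-voom, 4.33% with upper-quartile scaling, 1.11% with total counts, 2.8% under the robust fit, 9.2% by DESeq2 and 0% with the filter of 5 CPM. For all of these the cause was not tested.

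The replicate block gave 0 *gst* calls (0 higher) and 0 glutathione calls, with 1.14% of all tested genes called. An unadjusted p under 0.05 by edgeR was found for 8 *gst* genes (18.6%), against 20.4% of all tested genes. Same-numbered libraries did not deviate together (correlation -0.202 across genes). The titles give same-numbered libraries only a shared number, and this correlation cannot tell whether they also shared a culture or batch. Crossed pairing gave 11 *gst* calls, 10 higher and 1 lower, and 18 glutathione calls, with 23.6% of all tested genes called. Some estimates changed sign. *gst-8*, *gst-43* and *gst-28*, which were near 0, did so also with all 4 libraries. Others, among them *gst-17* at -0.4732 by edgeR with TMM and all 4 libraries, did so only without 1 library. *gst-8*, -0.0012 by edgeR with TMM and all 4 libraries, was 0.0037 with DESeq2 size factors, 0.027 with upper-quartile scaling, 0.0008 with no filter, 0.0027 by DESeq2, 0.0028 by limma-voom and 0.0018 under crossed pairing. *gst-43* was -0.0264 with total counts and -0.002 under the filter of 5 CPM, and *gst-28* was -0.0004 with total counts. Without 1 library *gst-8* ran from -0.1309 to 0.1464, *gst-43* from -0.0286 to 0.0455, *gst-28* from -0.1023 to 0.1881, *gst-16* from -0.0199 to 0.3786, *gst-38* from -0.146 to 0.0536, *gst-36* from -0.1654 to 0.032, *gst-27* from -0.1182 to 0.4647, *gst-26* from -0.1869 to 0.0054, *gst-40* from -0.0633 to 0.3195, *gst-23* from -0.0944 to 0.2891, *gst-33* from -0.0949 to 0.3051, *gst-21* from -0.5446 to 0.0564, *gst-29* from -0.2645 to 0.0924, *gst-18* from -0.4307 to 0.2522, *gst-17* from -1.655 to 0.1353 and *gsr-1* from -0.0886 to 0.0192. Depth limits *gst-17*, *gst-18* and *gst-32*, which had 4 to 48 counts a library.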
